A study of Mus musculus with 12 samples.

Results

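The BAF complex is a chromatin remodeller that uses ATP to slide or evict nucleosomes, and several of its subunits are encoded by families of paralogs. As neural progenitors leave the cell cycle, the complex is known to exchange members of these families: the actin-related protein ACTL6A (BAF53a) gives way to ACTL6B (BAF53b), SS18 to SS18L1 (CREST), and the PHD-finger proteins PHF10 (BAF45a) and DPF2 (BAF45d) to DPF1 (BAF45b) and DPF3 (BAF45c). The ATPases SMARCA4 (BRG1) and SMARCA2 (BRM) are alternative motors of the complex. The repressor REST holds back miR-9-3p and miR-124 in progenitors, and these microRNAs are known to target Actl6a. The 10 genes that encode these proteins were taken by symbol: Actl6a, Actl6b, Ss18, Ss18l1, Phf10, Dpf1, Dpf2, Dpf3, Smarca2 and Smarca4. They are 10 of the 54356 genes with summed reads and of the 16043 genes tested, and all 10 were tested.

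The series asks which genes differ when Chd5, a chromatin remodeller of the NuRD family, is absent during neuronal differentiation. Primary mouse neural stem cells were wild type or Chd5-/-, and both were grown in DMEM/F-12 with N-2, bovine serum albumin, epidermal growth factor and fibroblast growth factor 2. Both were then moved to neurobasal medium with B-27, bovine serum albumin, glutamine and antibiotics, and RNA was taken 3 h and 48 h later, with 3 libraries in each of the 4 groups. There is no group without differentiation medium, and the labels name neither the deleted part of Chd5 nor separate animals or cultures, so the p-values measure only the spread between these samples.

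Some features of the libraries bear on every comparison. They held between 14.11 and 18.71 M estimated reads. Chd5 itself was at 3.54, 3.93 and 4.66 counts per M reads (CPM) in wild type at 3 h and at 5.25, 6.31 and 7.06 in the libraries labelled Chd5-/-, so that its level does not show the loss at that time. At 48 h it was at 6.59, 7.15 and 5.28 CPM against 5.7, 3.34 and 2.96 CPM. In TPM, the authors' abundance per length, the order at 48 h was the opposite, with 0.624, 0.495 and 0.519 TPM in wild type against 2.56, 3.88 and 2.6 TPM, so that its level does not show the loss at 48 h either. Wild-type replicate 1 at 3 h stood apart: its read-weighted transcript length was 1805 bases against 3040 or more in every other library, and ribosomal protein genes took 13.23% of its reads. Replicate 2 of both genotypes at 48 h also stood apart, with a summed level of 10 mitosis markers of 1931 and 1807 CPM against 116 to 123 in the other libraries at that time. The fold changes of the members are therefore given over all 12 libraries and, where they pass over the 9 others, also over those 9; leaving out these 3 was decided with the data in view. Shares, and counts of groups that do not overlap, are over all 12. All 10 neural stem cell markers had reads in 11 of the 12 libraries. The 10 neuronal markers summed to 275 to 666 CPM in wild type and 1225 to 1333 CPM in the other genotype at 3 h, and to 552 to 855 and 727 to 1234 CPM at 48 h, where Stmn2 was at 0 in all 3 libraries labelled Chd5-/-. Map2 alone held 114 to 490 and 1095 to 1212 CPM of these sums at 3 h, and 533 to 693 and 702 to 1115 CPM at 48 h. Most of the other neuronal markers had lower group means in the libraries labelled Chd5-/- at both times. The 8 astrocyte markers summed to 1314 to 1630 CPM in wild type against 621 to 653 CPM at 3 h, and to 3843 to 4781 against 2060 to 5349 CPM at 48 h. Sparcl1 alone held 450 to 1150 against 8.71 to 10.7 CPM of the sums at 3 h. The 8 oligodendrocyte lineage markers summed to 648 to 934 against 880 to 968 CPM at 3 h, and to 1425 to 2134 against 1276 to 2126 CPM at 48 h. The part of these cell types in the changes over time was not tested. Microglia and blood markers summed to at most 1.02 CPM. In bulk RNA, fewer cells of a type and less RNA per cell cannot be told apart.

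The match of letters between miR-9-3p and the progenitor subunit gene Actl6a is short. The mature miR-9-3p, credited to RefSeq on GRCm38.p6 as are the promoters, is shown with its seed (bases 2 to 8) in capitals. Below it stand 22-base windows of the 3′ untranslated regions of Actl6a (transcript Actl6a-201, 371 bases of 3′ untranslated region) and Smarca2 (Smarca2-220, 952 bases), read from the GENCODE M21 transcripts of GRCm38 with the complement of the seed, AGCTTTA, in capitals.
mmu-miR-9-3p: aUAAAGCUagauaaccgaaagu
Actl6a site: acctcaacgtctgtAGCTTTAg
Smarca2 site: tgtcatctagaactAGCTTTAg
The Actl6a match lies at chr3:32726640-32726646 on the plus strand, bases 38 to 44 after the stop codon, and the Smarca2 match lies at chr19:26777502-26777508 on the plus strand, bases 132 to 138. The other 8 genes held no match in their longest annotated 3′ untranslated region. The same letters were present in 2372 of 21020 genes with such a region (11.3%). A match to the seed of miR-9-5p, ACCAAAG, was in none of the 10 genes and in 12.2% of all genes. A match is a description of the letters and no measurement of binding.

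The sequences upstream of the annotated starts are shown for 2 pairs: Actl6a and Actl6b, whose proteins replace each other, and Dpf1 and Dpf3, the neuronal PHD-finger genes. Each is 250 bases, written 5′ to 3′ on the strand of the gene, with CCAAT (or ATTGG, the same letters on the other strand) in capitals. The window of Actl6a is chr3:32708296-32708545 (plus strand; the RefSeq start it precedes lies inside the gene as GENCODE M21 annotates it, so the 2 annotations differ there), that of Actl6b chr5:137553296-137553545 (plus), that of Dpf1 chr7:29303755-29304004 (plus) and that of Dpf3 chr12:83487737-83487986 (minus).
Actl6a: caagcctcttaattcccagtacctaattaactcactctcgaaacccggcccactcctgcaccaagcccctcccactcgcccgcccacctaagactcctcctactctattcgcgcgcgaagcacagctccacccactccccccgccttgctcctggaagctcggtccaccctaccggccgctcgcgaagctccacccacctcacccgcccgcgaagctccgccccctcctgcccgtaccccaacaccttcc
Actl6b: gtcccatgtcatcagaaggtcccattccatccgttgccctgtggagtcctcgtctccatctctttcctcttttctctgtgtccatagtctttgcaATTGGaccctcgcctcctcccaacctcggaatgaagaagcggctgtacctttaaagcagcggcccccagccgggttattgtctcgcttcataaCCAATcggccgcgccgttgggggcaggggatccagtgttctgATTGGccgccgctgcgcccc
Dpf1: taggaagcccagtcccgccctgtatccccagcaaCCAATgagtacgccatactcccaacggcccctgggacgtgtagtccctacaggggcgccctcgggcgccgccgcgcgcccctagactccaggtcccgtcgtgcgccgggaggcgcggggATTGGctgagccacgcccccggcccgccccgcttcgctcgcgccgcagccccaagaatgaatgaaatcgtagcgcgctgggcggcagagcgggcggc
Dpf3: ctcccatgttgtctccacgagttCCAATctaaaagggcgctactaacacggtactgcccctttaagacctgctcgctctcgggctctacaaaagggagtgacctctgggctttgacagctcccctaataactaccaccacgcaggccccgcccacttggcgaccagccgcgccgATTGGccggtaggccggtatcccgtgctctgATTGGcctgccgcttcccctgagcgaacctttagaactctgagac
CCAAT was looked for after these sequences had been read. On either strand it occurred 3 times in the windows of Actl6b and Dpf3, 2 times in that of Dpf1, 1 time in that of Dpf2, and not in those of Actl6a, Ss18l1, Phf10, Smarca2 and Smarca4. Of 32817 upstream windows of this length, 33.8% held it at least 1 time and 10.1% at least 2 times. The half-sites of the REST motif, CAGCACC and GGACAGC on either strand, were in none of the 9 windows read, and in 5.73% and 5.28% of all windows. Neither half-site contains CCAAT.

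The 10 genes lay at very different levels. TPM, the authors' transcript abundance per length, put Dpf2 first in the libraries labelled Chd5-/- at 3 h, with 130 ± 7.62 TPM (SD, n = 3), followed by Phf10 with 79.2 ± 2.92 TPM. Actl6a (60.9 ± 3.08 TPM), Dpf1 (57.7 ± 0.94 TPM), Ss18 (33.9 ± 1.97 TPM), Smarca4 (29 ± 1.82 TPM), Smarca2 (20.5 ± 1.58 TPM) and Dpf3 (14.8 ± 1.04 TPM) came next. Ss18l1 at 0.971 ± 0.0413 TPM and Actl6b at 0.111 ± 0.0556 TPM were far below the rest. No library of a gene overlapped those of its neighbour in that group. In wild type at 48 h the spread was wider, and the neighbours Dpf2, Phf10 and Actl6a (124 ± 20.1, 80.5 ± 18 and 61.2 ± 9.48 TPM) overlapped pair by pair, as did Ss18, Dpf1, Smarca2 and Smarca4 (from 44.4 ± 8.66 to 28.7 ± 0.282 TPM). Dpf3 (15.1 ± 6.3 TPM), Ss18l1 (2.85 ± 0.0971 TPM) and Actl6b (0.874 ± 0.757 TPM) again stood lower, each clear of the next. In wild type at 3 h the order from Phf10 down to Smarca2 overlapped at every step, and replicate 1 of that group held low TPM for all but Phf10, for example 5.75 TPM of Dpf2 against 74.8 and 85.8. In the libraries labelled Chd5-/- at 48 h the order was Dpf2 (147 ± 34.1 TPM), Phf10 (76.2 ± 35.6 TPM), Actl6a (56.6 ± 0.887 TPM), Smarca2 (38.6 ± 8.95 TPM), Ss18 (36.2 ± 0.88 TPM), Dpf1, Smarca4 and Dpf3. Overlaps lay between Dpf2 and Phf10, between Phf10 and Actl6a and between Smarca2 and Ss18. There too Ss18l1 (2.32 ± 0.429 TPM) and Actl6b (0.342 ± 0.314 TPM) were last.

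**Figure D1:**
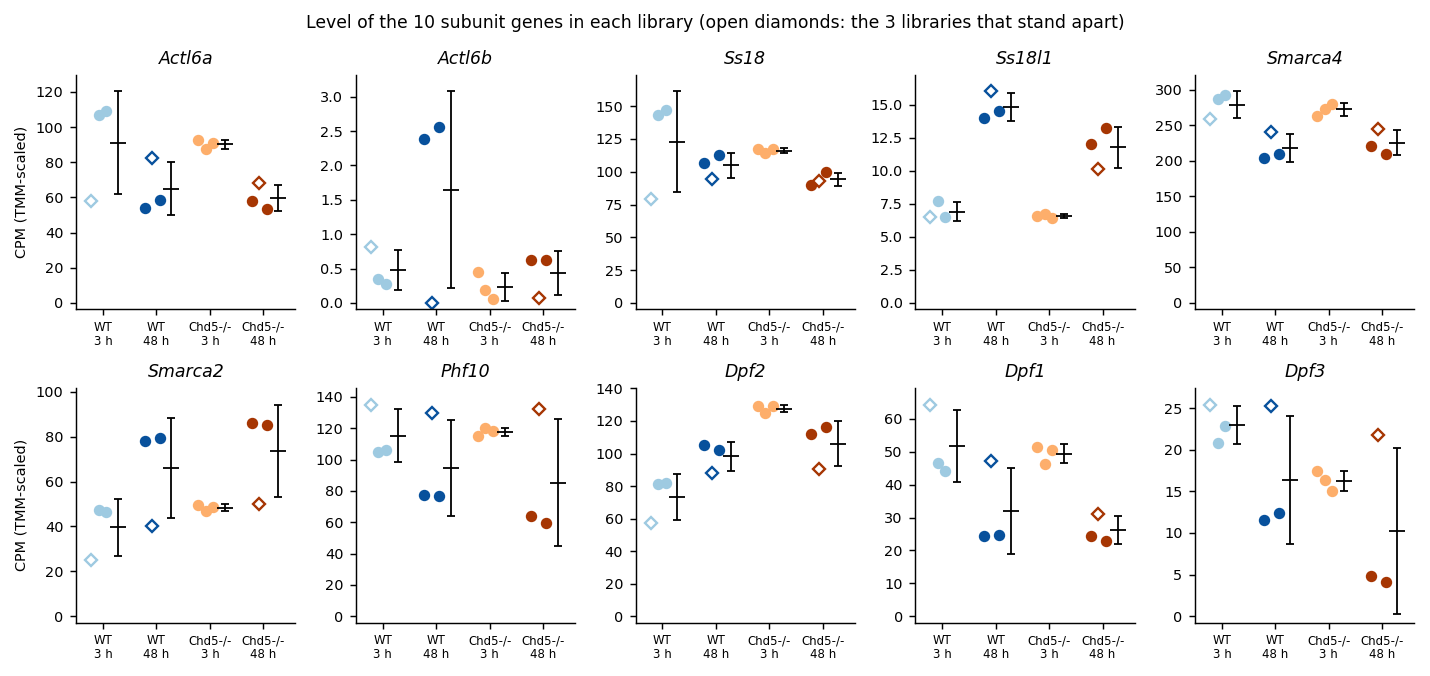
Level of each gene in CPM on linear axes, 1 panel per gene and 1 point per library, with the mean and SD of the 3 libraries of a group in black. Open diamonds are wild-type replicate 1 at 3 h and replicate 2 of both genotypes at 48 h. Ss18l1 is higher in all 6 libraries at 48 h (10.1 to 16 CPM) than in all 6 at 3 h (6.43 to 7.74 CPM), while for Dpf1, Dpf3, Phf10 and Smarca2 the diamonds at 48 h lie away from the other libraries of their group.

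Over time, Ss18l1 was the only member that rose in both genotypes over 12 libraries. It encodes CREST, a calcium-responsive coactivator needed for dendrite growth, and lies at chr2:180042509-180070201 (plus strand; all gene positions are from GENCODE M21 on GRCm38). In wild type it was at 6.48, 7.74 and 6.49 CPM at 3 h and at 14, 16 and 14.5 CPM at 48 h. Libraries labelled Chd5-/- held it at 6.54, 6.76 and 6.43 CPM at 3 h and at 12, 10.1 and 13.2 CPM at 48 h. No library at 48 h overlapped the libraries at 3 h in either genotype, replicate 2 included. The log2 fold change was 1.10 ± 0.21 (SE, n = 3 against 3; edgeR adjusted p = 0.00735) in wild type and 0.84 ± 0.21 (adjusted p = 0.0179) in the other genotype. In wild type the call was kept under all 20 alternatives, with adjusted p from 3.09e-06 to 0.0335. In the other genotype it was kept under 14 of 20, with adjusted p up to 0.124, and it was lost when any library labelled Chd5-/- other than replicate 2 at 48 h was left out (adjusted p from 0.0685 to 0.0875). The interaction of genotype and time for Ss18l1 was -0.26 ± 0.30 (adjusted p = 0.759). Over 9 libraries Ss18l1 rose by 0.96 ± 0.11 (adjusted p = 3.09e-06) and by 0.91 ± 0.10 (adjusted p = 2.45e-06), with an interaction of -0.05 ± 0.15 (adjusted p = 0.818).

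Its partner Ss18, the subunit it replaces, did not pass over the 12 libraries in either genotype. In wild type Ss18 (chr18:14624198-14682914, minus strand) was at 78.9, 143 and 147 CPM at 3 h and at 107, 94.3 and 113 CPM at 48 h. The low value at 3 h was that of replicate 1, and it made the groups overlap. With the label Chd5-/- Ss18 was at 117, 114 and 117 CPM at 3 h and at 89.9, 92.9 and 99.4 CPM at 48 h, with no overlap. The log2 fold changes were -0.23 ± 0.24 (adjusted p = 0.503) and -0.30 ± 0.24 (adjusted p = 0.398). Over 9 libraries Ss18 fell by 0.45 (adjusted p = 1.36e-06) and by 0.33 (adjusted p = 1.6e-05) on the log2 scale. In TPM Ss18 did not fall over the same libraries. It was at 8.39, 42.7 and 44.6 TPM in wild type at 3 h and at 46.3, 34.9 and 51.9 TPM at 48 h. The libraries labelled Chd5-/- held 31.6, 34.9 and 35.1 TPM at 3 h and 35.6, 35.7 and 37.2 TPM at 48 h. The share of Ss18l1 in the summed TPM of the pair was 2.77% ± 0.787 at 3 h and 6.15% ± 1 at 48 h in wild type, and 2.79% ± 0.115 and 6.02% ± 0.968 in the other genotype, so that Ss18 remained the larger part in every library.

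The actin-related pair moved in opposite directions once the 3 libraries were left out. Actl6a, a subunit of progenitor BAF and of other remodellers, lies at chr3:32706298-32726973 (plus strand), and Actl6b, the subunit of neuronal BAF, at chr5:137553517-137569582 (plus strand). In wild type Actl6a was at 57.7, 107 and 109 CPM at 3 h and at 54, 82.2 and 58.8 CPM at 48 h. The libraries labelled Chd5-/- held 92.5, 87.3 and 90.7 CPM at 3 h and 57.7, 68 and 53.6 CPM at 48 h. The groups overlapped in wild type, through replicate 1 at 3 h, and did not overlap in the other genotype. Over 12 libraries the log2 fold changes were -0.49 ± 0.27 (adjusted p = 0.205) and -0.59 ± 0.27 (adjusted p = 0.14), which did not pass. Over 9 libraries Actl6a fell by 0.98 ± 0.05 (adjusted p = 1.12e-09) and by 0.73 ± 0.05 (adjusted p = 1.19e-08) on the log2 scale. In TPM it was at 15.1, 78.6 and 82.4 in wild type at 3 h and at 56.7, 72.1 and 54.8 at 48 h. The libraries labelled Chd5-/- differed little in TPM, with 58.5, 59.8 and 64.4 at 3 h and 57.6, 56.2 and 56 at 48 h.

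Actl6b was near the limit of detection throughout. In wild type it had 8, 6 and 5 estimated reads at 3 h and 39, 0 and 45 at 48 h, or 0.81, 0.342 and 0.277 CPM and 2.38, 0 and 2.56 CPM. Under the label Chd5-/- it had 8, 3 and 1 reads at 3 h and 10, 1 and 10 at 48 h, or 0.447, 0.189 and 0.0569 CPM and 0.619, 0.0668 and 0.631 CPM. Replicate 2 at 48 h held the lowest value of its group in both genotypes, and without it both groups at 48 h lay above those at 3 h. The changes over 12 libraries did not pass (1.85 ± 1.14, adjusted p = 0.258, and 0.90 ± 1.24, adjusted p = 0.641). Over 9 libraries Actl6b rose by 2.92 ± 0.49 (adjusted p = 0.000124) in wild type and by 1.36 ± 0.56 (adjusted p = 0.0407) in the libraries labelled Chd5-/-. It made up at most 2.38% of the summed TPM of Actl6a and Actl6b in any library, at most 4.23% of their reads, which are not per length, and at most 6.1% of the TPM of their protein-coding transcripts.

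Of the ATPases, Smarca4 fell and Smarca2 rose in CPM over 9 libraries, and neither passed over 12. Smarca4 (chr9:21616169-21704230, plus strand) had the most reads of the 10 genes. In wild type it was at 258, 287 and 292 CPM at 3 h and at 204, 241 and 209 CPM at 48 h, and in the libraries labelled Chd5-/- at 263, 273 and 280 CPM and at 221, 245 and 210 CPM. The groups did not overlap in either genotype, yet the changes of -0.36 ± 0.18 (adjusted p = 0.169) and -0.27 ± 0.18 (adjusted p = 0.313) did not pass over 12 libraries. Over 9 libraries Smarca4 fell by 0.54 ± 0.04 (adjusted p = 4.36e-08) and by 0.37 ± 0.04 (adjusted p = 7.38e-07) on the log2 scale. In TPM it was at 9.03, 30.4 and 30.7 in wild type at 3 h and at 28.8, 28.4 and 29 at 48 h. The libraries labelled Chd5-/- showed no fall in TPM, with 26.9, 29.9 and 30.2 at 3 h and 30.9, 30.6 and 29.6 at 48 h.

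Smarca2 (chr19:26605050-26778322, plus strand), the other ATPase, was at 24.9, 47.4 and 46.6 CPM in wild type at 3 h and at 78, 40.4 and 79.6 CPM at 48 h. Libraries labelled Chd5-/- held 49.7, 47 and 48.6 CPM at 3 h and 86.1, 50 and 85 CPM at 48 h. Replicate 2 at 48 h was near the level of 3 h in both genotypes. The changes over 12 libraries were 0.74 ± 0.34 (adjusted p = 0.136) and 0.61 ± 0.34 (adjusted p = 0.225), and over 9 libraries Smarca2 rose by 0.70 ± 0.04 (adjusted p = 6.98e-09) and by 0.79 ± 0.04 (adjusted p = 5.53e-10). Its share in the summed TPM of both ATPases was 34.9% ± 8.8 at 3 h and 54.2% ± 8.88 at 48 h in wild type, and 41.4% ± 3.36 and 55.4% ± 6.39 in the other genotype. Smarca2 thus held more TPM than Smarca4 in replicates 1 and 3 of both groups at 48 h (56.4% to 61.8%), and less in replicate 2 (44.4% and 48%). With protein-coding transcripts alone these shares were 50.7% to 54.2%, and 36.9% and 43.8%. Of the reads, which are not per length, Smarca2 held 27.5% to 28.8%, and 14.4% and 16.9% in replicate 2.

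**Figure D2:**
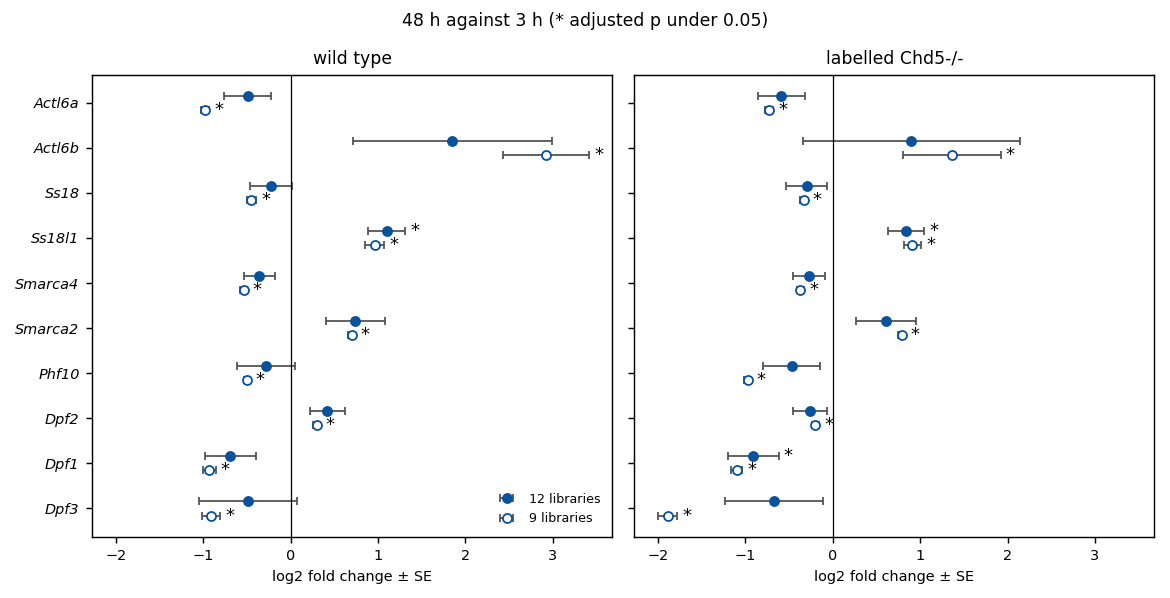
Log2 fold change of 48 h against 3 h with its SE for each gene, wild type on the left and labelled Chd5-/- on the right, filled for 12 libraries and open for the 9 without the 3 that stand apart. Asterisks mark an edgeR adjusted p under 0.05: over 12 libraries only Ss18l1 in both genotypes and Dpf1 in the right panel carry one, over 9 libraries all 10 genes do in both panels. Over 9 libraries 37.6% of all genes were higher and 38.4% lower in wild type, and 38.9% and 40.1% in the other genotype.

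The PHD-finger family did not show a rise of its neuronal members. Dpf1 (chr7:29303951-29318243, plus strand), a double PHD-finger subunit of neuronal BAF, was at 64.3, 46.5 and 44.2 CPM in wild type at 3 h and at 24.5, 47.1 and 24.6 CPM at 48 h. Those labelled Chd5-/- held 51.6, 46.2 and 50.6 CPM at 3 h and 24.5, 31.2 and 23 CPM at 48 h. Replicate 2 was the highest library at 48 h in both genotypes, and within the range of 3 h in wild type. Dpf1 fell in the libraries labelled Chd5-/- by 0.91 ± 0.29 on the log2 scale (adjusted p = 0.0447), while its change of -0.69 ± 0.29 in wild type did not pass (adjusted p = 0.105). The call was kept under 10 of 20 alternatives, with adjusted p from 2.02e-09 to 0.154. It was lost without any 1 of wild-type replicates 2 and 3 at 3 h, the 3 libraries labelled Chd5-/- at 3 h, and replicates 1 and 3 of that genotype at 48 h (adjusted p from 0.0534 to 0.154). Over 9 libraries Dpf1 fell by 0.93 ± 0.07 (adjusted p = 2.67e-08) and by 1.10 ± 0.06 (adjusted p = 2.02e-09).

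Dpf3 (chr12:83213745-83487716, minus strand), the other neuronal member and also a subunit in heart and skeletal muscle, was at 25.4, 20.8 and 22.8 CPM in wild type at 3 h and at 11.5, 25.2 and 12.4 CPM at 48 h. Those labelled Chd5-/- held 17.4, 16.4 and 15 CPM at 3 h and 4.83, 21.8 and 4.16 CPM at 48 h. Replicate 2 held 2.10 and 4.84 times the mean of the other libraries of its group at 48 h, and it lay above every library of its genotype at 3 h in those labelled Chd5-/-. The changes did not pass over 12 libraries (-0.49 ± 0.56, adjusted p = 0.55, and -0.67 ± 0.56, adjusted p = 0.431). Over 9 libraries Dpf3 fell by 0.91 ± 0.10 (adjusted p = 1.75e-06) and by 1.89 ± 0.11 (adjusted p = 3.53e-09).

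Of the progenitor members, Phf10 (chr17:14945009-14961273, minus strand) was at 135, 105 and 106 CPM in wild type at 3 h and at 77.2, 130 and 76.6 CPM at 48 h. The other genotype held 115, 120 and 118 CPM at 3 h and 64.1, 132 and 59.4 CPM at 48 h. As with Dpf3, replicate 2 at 48 h was far above the other libraries of its group and made the groups overlap in both genotypes. Phf10 did not pass over 12 libraries (-0.28 ± 0.33, adjusted p = 0.555, and -0.47 ± 0.33, adjusted p = 0.341), and over 9 libraries it fell by 0.50 ± 0.04 (adjusted p = 2.26e-07) and by 0.97 ± 0.04 (adjusted p = 1.24e-10).

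Dpf2 (chr19:5896516-5913010, minus strand), a subunit of BAF in most cell types, was at 57.1, 81.1 and 81.9 CPM in wild type at 3 h and at 105, 88.1 and 102 CPM at 48 h. With the label Chd5-/- it was at 129, 125 and 129 CPM at 3 h and at 112, 90.3 and 116 CPM at 48 h. In CPM the groups did not overlap in either genotype, but the order was opposite: higher at 48 h in wild type and lower at 48 h in the other. Over 12 libraries neither change passed (0.42 ± 0.20, adjusted p = 0.154, and -0.26 ± 0.20, adjusted p = 0.39), and the interaction was -0.69 ± 0.29 (unadjusted p = 0.0373, adjusted p = 0.467). Over 9 libraries Dpf2 rose by 0.30 ± 0.04 in wild type (adjusted p = 1.57e-05) and fell by 0.20 ± 0.04 in the other genotype (adjusted p = 0.000193), with an interaction of -0.49 ± 0.05 (adjusted p = 9.56e-06). TPM did not show this opposite order. There Dpf2 was at 5.75, 74.8 and 85.8 TPM in wild type at 3 h and at 134, 100 and 137 TPM at 48 h. The libraries labelled Chd5-/- held 124, 128 and 139 TPM at 3 h and 170, 108 and 164 TPM at 48 h, with replicate 2 the lowest.

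As a share of the TPM of the 4 PHD-finger genes, Dpf1 and Dpf3 together held 25% ± 10.2 at 3 h and 21.3% ± 5.66 at 48 h in wild type, and 25.7% ± 0.586 and 16% ± 2.57 in the other genotype. This share depends on which transcripts are summed. With protein-coding transcripts alone it was 70.3%, 52% and 57.1% in wild type at 3 h and 44.7%, 58.3% and 46.7% at 48 h, and 50.9%, 43.1% and 49.7% and then 34.2%, 46.3% and 40.6% in the other genotype. The coding transcripts held between 18% and 56.2% of the reads of Phf10 and between 46.9% and 74.2% of those of Dpf2, the rest being assigned to retained-intron, nonsense-mediated decay and other non-coding forms. Ss18l1, Dpf3 and Smarca4 have no non-coding form in the annotation used.

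**Figure D3:**
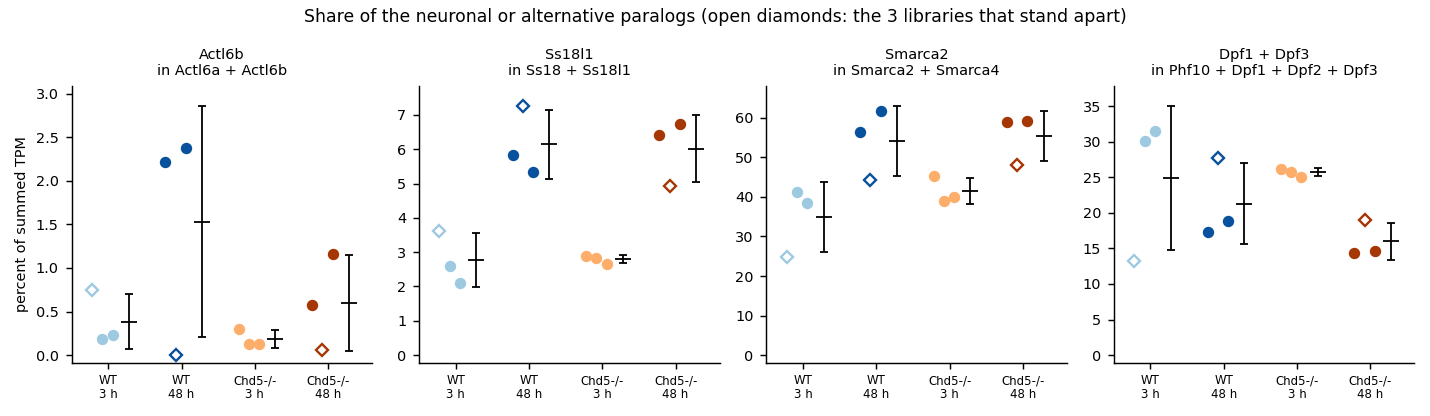
Share of the neuronal or alternative paralog in the summed TPM of its family, in percent, with 1 point per library, the mean and SD of each group in black, and open diamonds for the 3 libraries that stand apart. The share of Ss18l1 is higher at 48 h in all 6 libraries (4.92% to 7.27%) than in all 6 at 3 h (2.09% to 3.63%), whereas the joint share of Dpf1 and Dpf3 is not higher at 48 h than in replicates 2 and 3 of wild type at 3 h.

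Counted against the background of all tested genes, the members stand as follows. In wild type over time, 1 of 10 members was higher and 0 lower over 12 libraries, where 12.7% of 16043 genes were higher and 10.1% lower; the median log2 fold change was -0.26 over the members and 0.09 over all genes. In the libraries labelled Chd5-/-, 1 was higher and 1 lower, where 14.1% and 8.03% of all genes were (medians -0.29 and 0.04). Over 9 libraries, 4 members were higher and 6 lower in wild type, against 37.6% and 38.4% of 16489 genes, and 3 were higher and 7 lower in the other genotype, against 38.9% and 40.1%. Since most genes pass in that fit, whose SE for 7 of the 10 members in wild type was 0.07 or less, passing says little of these genes in particular, and their direction and size carry the description. Groups did not overlap for 3 members in wild type (37.7% of all genes) and for 7 in the other genotype (64.6%).

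The libraries that stand apart at 48 h moved the members together. Replicate 2 held more Phf10, Dpf1, Dpf3, Actl6a and Smarca4 than replicates 1 and 3 in both genotypes and less Actl6b, Smarca2 and Dpf2. For Phf10 the ratio was 1.69 and 2.14, for Dpf1 1.92 and 1.32, and for Smarca2 0.51 and 0.58. For Ss18l1 the ratio was 1.12 and 0.80, and replicate 2 stayed above every library at 3 h. The summed mitosis markers of those libraries, 1931 and 1807 CPM, were nearer to the 1907 to 2964 CPM of the libraries at 3 h than to the other libraries at 48 h. Their part in these differences was not tested. Across the 12 libraries the level of Dpf1 correlated with that of Smarca2 at r = -0.92 and that of Phf10 with Dpf3 at r = 0.91, as a description of points that share time, genotype and library.

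**Figure D4:**
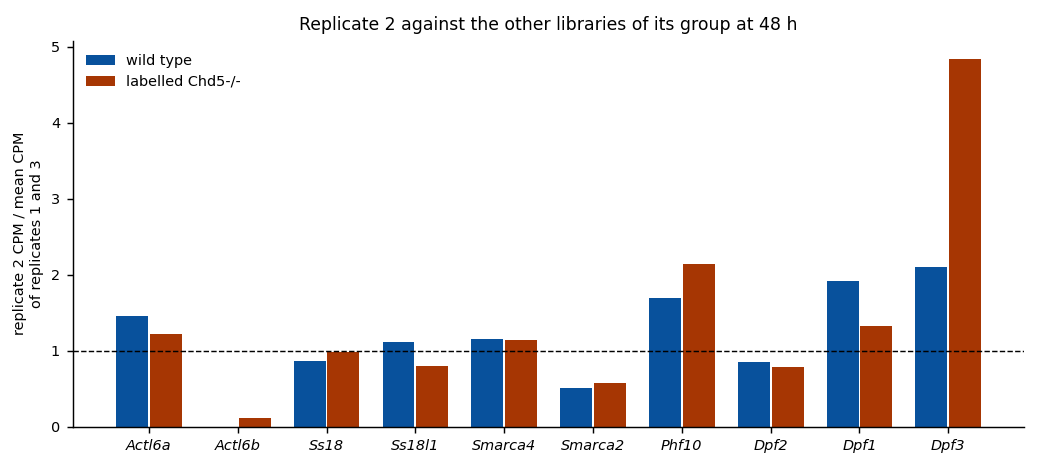
CPM of replicate 2 at 48 h divided by the mean CPM of replicates 1 and 3 of the same group, for wild type and for the libraries labelled Chd5-/-, with a dashed line at a ratio of 1. Dpf3 reaches 2.10 and 4.84 and Smarca2 0.51 and 0.58, Actl6b is at 0 and 0.11, and Ss18l1 stays at 1.12 and 0.80.

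Between the genotypes at 3 h, Dpf2 was the only member that passed over 12 libraries. It was higher in the libraries labelled Chd5-/- by 0.80 ± 0.21 on the log2 scale (1.74-fold; edgeR adjusted p = 0.0436), and its lowest library there (125 CPM) lay above the highest wild-type library (81.9 CPM). Of all genes, 3.24% were higher and 3.48% lower, and groups did not overlap for 45% of them, against 2 of the 10 members (Dpf2 higher, Dpf3 lower). The call for Dpf2 was kept under 9 of 21 alternatives, with a log2 difference from 0.65 to 1.12 and adjusted p from 7.22e-09 to 0.176. When 1 library was left out, it was kept only without one of the 3 that stand apart, and lost without any of the other 9 (adjusted p from 0.0586 to 0.157). Same-numbered libraries of the genotypes deviated together within each time, and with the replicate number as a block within each time Dpf2 was higher by 0.81 ± 0.19 (adjusted p = 0.0434), where 4.48% of all genes were higher and 4.15% lower. The other 9 members had, without the block, log2 differences from -0.94 ± 1.26 (Actl6b) to 0.29 ± 0.34 (Smarca2), with adjusted p of 0.617 or more.

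Over 9 libraries, 2 members were higher and 4 lower at 3 h in the libraries labelled Chd5-/-, where 27.2% of 16489 genes were higher and 25.3% lower. Dpf2 was higher by 0.65 ± 0.04 (adjusted p = 7.22e-09) and Phf10 by 0.16 ± 0.04 (adjusted p = 0.00336). Dpf3 was lower by a log2 difference of -0.42 ± 0.08 (adjusted p = 0.000973), Ss18 by -0.32 ± 0.04 (adjusted p = 2.5e-05), Actl6a by -0.26 ± 0.04 (adjusted p = 0.000288) and Smarca4 by -0.09 ± 0.04 (adjusted p = 0.0489). The median over the members was -0.10. Beside these values, fibroblast and smooth muscle markers summed to 573 to 606 CPM in the libraries labelled Chd5-/- at 3 h. In every other group they summed to at most 18.5 CPM. Acta2 alone held 566 to 598 CPM of the high sum, with 5 to 7 of the 8 markers detected and Lum at 0 in all 3 libraries. By group mean Tagln was higher there than in wild type (6.22 against 0.458 CPM), and the remaining markers were lower. Neuronal markers summed to 1225 to 1333 CPM against 275 to 666 CPM in wild type. Map2 alone held 1095 to 1212 against 114 to 490 CPM of these sums. Elavl3, Elavl4 and Snap25 were also higher by group mean, and Tubb3, Dcx, Rbfox3, Stmn2, Syt1 and Syn1 were lower. Astrocyte markers, at 621 to 653 CPM, summed to less than in wild type (1314 to 1630 CPM). Sparcl1 alone was at 8.71 to 10.7 CPM against 450 to 1150 CPM. By group mean Gfap, Aqp4, S100b and Gja1 were lower too, while Slc1a2, Aldoc and Aldh1l1 were higher. The part of these markers in the differences was not tested.

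At 48 h no member passed between the genotypes over 12 libraries in edgeR, DESeq2 or limma-voom, and none had an unadjusted p under 0.05 in edgeR. Of all genes, 1.53% were higher and 1.21% lower, and groups did not overlap for 23.2% of them and for 1 member, Ss18l1 (14, 16 and 14.5 CPM against 12, 10.1 and 13.2 CPM; -0.33 ± 0.21, adjusted p = 0.706). The largest differences were those of Actl6b (-1.89 ± 1.13, adjusted p = 0.672) and Dpf3 (-0.68 ± 0.56, adjusted p = 0.841). With the block within each time no member passed either, with 2 unadjusted p under 0.05 (Actl6b and Dpf3), where 1.67% of all genes were higher and 1.46% lower. Over 9 libraries, 2 members were higher and 4 lower, where 25.6% and 21.6% of all genes were. Dpf3 was lower by a log2 difference of -1.40 ± 0.13 (12 ± 0.635 CPM in wild type against 4.5 ± 0.472 CPM; SD, n = 2; adjusted p = 1.29e-06), and Actl6b by -1.96 ± 0.45 (adjusted p = 0.00287), with 39 and 45 estimated reads in wild type against 10 and 10. Phf10 (-0.30 ± 0.05, adjusted p = 0.000175) and Ss18 (-0.21 ± 0.05, adjusted p = 0.00383) were lower as well, and Dpf2 (0.15 ± 0.04, adjusted p = 0.00571) and Smarca2 (0.13 ± 0.04, adjusted p = 0.0185) were higher. Leaving out replicate 2 of the libraries labelled Chd5-/- alone was enough for Dpf3 to pass (-1.87, adjusted p = 0.0292). Beside these values, neuronal markers summed to 727 to 1234 CPM in the libraries labelled Chd5-/- at 48 h and to 552 to 855 CPM in wild type. Map2 alone held 702 to 1115 and 533 to 693 CPM of these sums. Dcx was also higher by group mean in the libraries labelled Chd5-/- (10.8 against 5.01 CPM), and the remaining neuronal markers were lower. Astrocyte markers summed to 2060 to 5349 CPM in the libraries labelled Chd5-/- and to 3843 to 4781 CPM in wild type. The part of these markers in the differences was not tested.

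**Figure D5:**
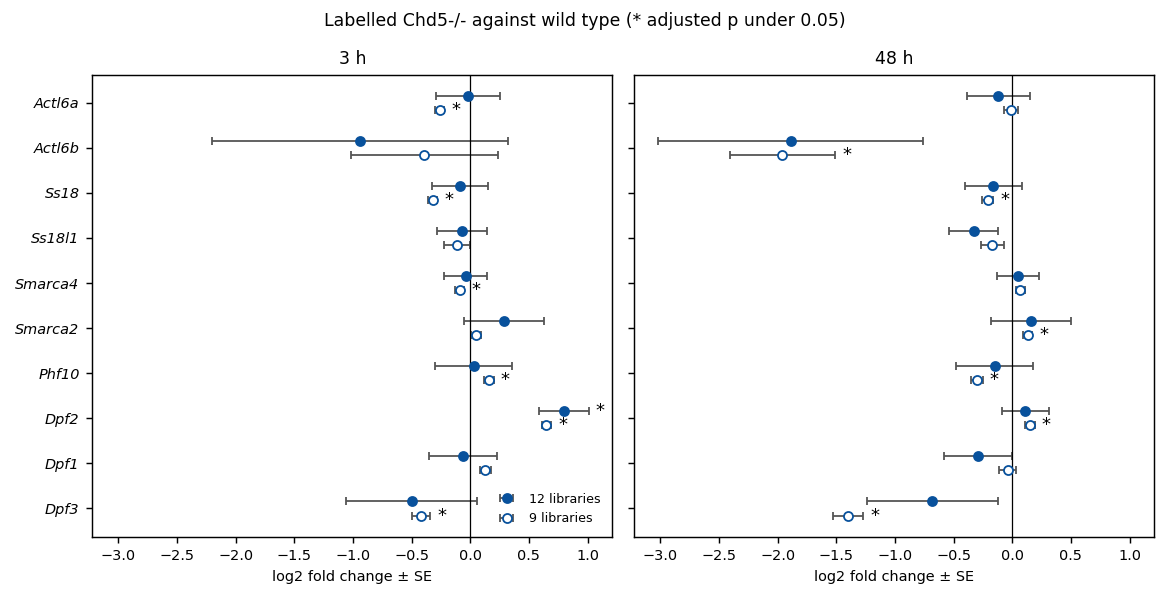
Log2 difference between the libraries labelled Chd5-/- and wild type with its SE for each gene, 3 h on the left and 48 h on the right, filled for 12 libraries and open for 9. Asterisks mark an edgeR adjusted p under 0.05: over 12 libraries Dpf2 at 3 h alone carries one (0.80), and at 48 h Dpf3 (-1.40) and Actl6b (-1.96) lie farthest from 0 over 9 libraries.

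The difference between the time courses of the genotypes, tested as an interaction, passed for none of the 10 members over 12 libraries in edgeR, DESeq2 or limma-voom, with 1 unadjusted p under 0.05 in edgeR (Dpf2). Of all genes, 0.137% were higher and 0.0935% lower. With the block within each time none of the 10 passed, with 1 unadjusted p under 0.05 (Dpf2), where 0.131% and 0.0748% of all genes did. Over 9 libraries it passed for 5: Actl6a (0.25) and Smarca4 (0.16) fell less in the libraries labelled Chd5-/-, Dpf3 (-0.98 ± 0.15) and Phf10 (-0.46 ± 0.06) fell more, and Dpf2 (-0.49 ± 0.05) fell there while it rose in wild type. Of all genes, 19.3% and 21.1% passed in that fit.

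The other subunits of BAF, PBAF and ncBAF complexes give the setting, with 21 of 21 tested. Over 12 libraries 3 rose and 1 fell over time in wild type, where 12.7% and 10.1% of all genes did: the core subunit Smarcc2 (0.87 ± 0.21, adjusted p = 0.0167), Brd9, a bromodomain subunit of ncBAF (0.85 ± 0.17, adjusted p = 0.00891), and Bcl11b, a zinc-finger factor of the cortex (2.27 ± 0.66, adjusted p = 0.0332), against Bcl7c (-1.65 ± 0.54, adjusted p = 0.0493). Bcl11b was near the limit of detection in wild type. Its level was 0.146 ± 0.039 CPM at 3 h and 0.753 ± 0.48 CPM at 48 h (SD, n = 3). Replicate 2 at 48 h held 0.202 CPM, little above the highest wild-type library at 3 h (0.171 CPM). Bcl7c was at 202 CPM in wild-type replicate 1 at 3 h and at 41.1 and 39.1 CPM in replicates 2 and 3. The fall of Bcl7c over 9 libraries was 0.43. In the libraries labelled Chd5-/- 2 rose and none fell, where 14.1% and 8.03% of all genes did: Brd7 of PBAF (0.51 ± 0.16, adjusted p = 0.0487) and Bcl11a (adjusted p = 0.00159). Over 9 libraries 11 rose and 6 fell in wild type, against 37.6% and 38.4% of all genes, and 13 rose and 5 fell in the other genotype, against 38.9% and 40.1%. Those with the smallest p included another pair of paralogs: Smarcc1, the core subunit abundant in progenitors, fell by 1.00 ± 0.04 and 0.96 ± 0.03 on the log2 scale, and its paralog Smarcc2 rose by 0.81 ± 0.04 and 0.68 ± 0.03. Smarcd3 (BAF60c) rose by 1.41 ± 0.07 and 1.06 ± 0.07, and Bcl7a by 0.92 ± 0.04 and 0.88 ± 0.04.

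Between the genotypes, 1 of the 21 passed at 3 h over 12 libraries, as lower, where 3.24% of all genes were higher and 3.48% lower. With the block within each time 2 passed as lower (4.15% of all genes): Bcl11a (adjusted p = 0.00623) and Smarcd2 (BAF60b; -0.87 ± 0.19, adjusted p = 0.0379), which without the block had -0.89 ± 0.26 (adjusted p = 0.065). Bcl11a, a BAF-associated zinc-finger factor of neurons, was at 1.32, 2.39 and 2.33 CPM in wild type and had 3 reads in all in the libraries labelled Chd5-/- (adjusted p = 0.00285), a ratio of 34.4 with a 95% counting interval from 11.8 to 167. At 48 h it was back at 2.72, 1 and 2.46 CPM against 3.85, 2.09 and 5.06 CPM in wild type, which did not pass. None of the 21 passed at 48 h in edgeR, with 1 unadjusted p under 0.05 (1.53% of all genes were higher and 1.21% lower), and none in the interaction, with 1. Over 9 libraries 2 were higher and 12 lower at 3 h, against 27.2% and 25.3% of all genes, and 1 was higher and 12 lower at 48 h, against 25.6% and 21.6%. In the interaction 4 and 7 passed, against 19.3% and 21.1% of all genes, and the value of Bcl11a there was 4.40 ± 0.56.

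Among the known regulators of the switch, Ptbp1, the splicing factor that blocks neuronal exons and opposes miR-124, fell in the libraries labelled Chd5-/- over time by 1.52 ± 0.35 on the log2 scale (adjusted p = 0.0121). The libraries held 476, 467 and 495 CPM at 3 h and 146, 218 and 138 CPM at 48 h. Its paralog Ptbp2 and the repressors Rest and Rcor1 did not pass in any contrast over 12 libraries, and Ptbp1 did not pass in wild type (-0.80 ± 0.34, adjusted p = 0.114). Over 9 libraries all 4 passed over time in both genotypes: Ptbp1 fell by 1.44 and 1.79, Rcor1 by 1.01 and 1.28 and Rest by 0.34 and 0.29, while Ptbp2 rose by 0.63 and 0.69. Most genes passed in that fit: 37.6% of all genes were higher and 38.4% lower in wild type. In the other genotype 38.9% were higher and 40.1% lower, so passing says little of these 4 in particular.

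The host gene of Mir9-3, Mir9-3hg, was looked up after the miR-9-3p site in Actl6a had been seen. It was at 4.66, 3.07 and 2.89 CPM in wild type at 3 h and at 60.2, 9.44 and 59.9 CPM at 48 h. In the libraries labelled Chd5-/- it was at 7.88, 6.63 and 5.58 CPM at 3 h and at 55.9, 15.6 and 55.3 CPM at 48 h. All libraries at 48 h lay above those at 3 h, with replicate 2 the lowest of its group in both genotypes. Mir9-3hg rose by 3.62 ± 0.70 (adjusted p = 0.00719) and 2.66 ± 0.66 (adjusted p = 0.0167). C130071C03Rik, which overlaps Mir9-2, did not pass over 12 libraries (1.49 ± 0.56, adjusted p = 0.0755, and 1.06 ± 0.55, adjusted p = 0.197). Over 9 libraries both rose: Mir9-3hg by 4.28 ± 0.11 (adjusted p = 9.88e-13) and 3.02 ± 0.09 (adjusted p = 1.49e-12), and C130071C03Rik by 1.24 ± 0.04 (adjusted p = 2.05e-11) and 1.34 ± 0.04 (adjusted p = 1.7e-12). Of all genes, 37.6% rose in wild type and 38.9% in the other genotype in that fit. These mRNA libraries measure the host transcripts and not the mature microRNA.

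For likeness, the genes whose log2(CPM + 1) followed each member most closely over the 12 libraries were read off. For Actl6a they were Rngtt (Pearson r = 0.983), Gpn3 (0.974) and Cse1l (0.974). For Dpf1 they were Toe1 (0.988), Kat14 (0.981) and Apex2 (0.981), and for Dpf3 Trf (0.971), Fbln2 (0.959) and Cdc25a (0.953). By rank correlation (Spearman) other genes came first: Stk38l for Actl6a, H2afx for Dpf1 and Ilf2 for Dpf3. Both describe points that share time, genotype and library. The mean of Actl6b, 0.698 CPM, was too low for this description.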

How the data were processed

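RNA of 12 libraries was analysed, 3 in each of 4 groups set by genotype and time in the labels. Per the file headers, the authors' tables hold estimated counts (NumReads), TPM and the effective length (another deposited value) of 140658 transcripts. The submitters' processing notes name Salmon. Its version, settings and index: not given in the sources used here. Names without version matched GENCODE M21 (GRCm38) for 140137 transcripts, and the 521 others held 0.135% to 0.181% of a library's reads and were left out. The deposited estimated counts were summed per gene and rounded, and the deposited TPM were summed per gene. TPM depends on how Salmon split reads over short non-coding forms. Reads shared by paralogs or overlapping genes may be split between them.

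Counts were tested with edgeR 4.0.16 in R 4.3.3: filterByExpr (minimum count 10, total 15), TMM factors, 1 mean per group over all 12 libraries, two-sided quasi-likelihood F tests of 5 contrasts, and Benjamini-Hochberg adjustment over all genes tested, with a threshold of 0.05. CPM are counts divided by the TMM-scaled library size in M. The fit was tested on simulated data. Alternatives were RLE size factors, no filter, limma-voom (limma 3.58.1), DESeq2 1.42.0, replicate blocks, a stricter filter (1 CPM in 3 libraries), an effective-length offset, each library left out, and, added with the data in view, the 3 libraries that stand apart left out and a replicate block within each time. Same-numbered libraries of the genotypes deviated together within a time (correlations from 0.13 to 0.26 at 3 h and from 0.70 to 0.79 at 48 h), and those of 3 h and 48 h did not (-0.03 to 0.02). This pairing comes from the data and not from the labels, so the block within each time was fitted for the genotype contrasts and the interaction. The deviations were taken from the mean of the 3 libraries of a group, so the 3 correlations of a time are not independent. At 48 h replicate 2 stood apart in both genotypes, which alone can raise all 3 correlations there. With 1 or 2 libraries in a group, these are assumed to vary like the other groups.

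The 10 members and all gene lists were chosen with earlier results of these data known. All members were named, and of the other subunits up to 4 with the smallest p per contrast. Likeness used Pearson r of log2(CPM + 1) with protein-coding genes of at least 5 CPM on average. Mir9-3hg and C130071C03Rik are outside this rule and were picked once their values were known. Upstream sequences came from RefSeq (GRCm38.p6; 9 of 10 members matched). Counting intervals are exact Poisson and cover counting error only.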

Additional observations from a re-analysis of the deposited data

Results flagged for a closer look

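The following results stood out because the time course of a gene differed between the genotypes by a test of the difference itself, over the 9 libraries without the 3 that stand apart. In edgeR the interaction of genotype and time was -0.98 for Dpf3 (adjusted p = 0.000228), -0.49 for Dpf2 (adjusted p = 9.56e-06) and -0.46 for Phf10 (adjusted p = 5.45e-05) on the log2 scale. It was 0.25 for Actl6a (adjusted p = 0.0137) and 0.16 for Smarca4 (adjusted p = 0.0282). Over all 12 libraries none of these passed. There Dpf2, whose groups moved in opposite directions without overlap in CPM, had an interaction of -0.69 (adjusted p = 0.467). In TPM its libraries labelled Chd5-/- overlapped between the times, with 124, 128 and 139 at 3 h and 170, 108 and 164 at 48 h. The interaction of Dpf3 rests on libraries with 4.83 and 4.16 CPM at 48 h, where replicate 2 of the same group held 21.8 CPM. Of all genes, 19.3% were higher and 21.1% lower in the interaction over 9 libraries.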

How the results depend on the processing

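The number of members that passed depended on the settings. In edgeR 1, 0, 1, 2 and 0 members passed at 3 h, at 48 h, over time in wild type, over time in the libraries labelled Chd5-/- and in the interaction. Without the 3 libraries that stand apart these counts were 6, 6, 10, 10 and 5. At 3 h the count was 0 with no filter, with the length offset and with 1 replicate block for both times, under which Dpf2 had an adjusted p of 0.0694. Over time in the libraries labelled Chd5-/- it was 1 with RLE size factors, 0 with no filter and 1 with the length offset, and in wild type it was 2 with DESeq2. Leaving out 1 library gave 0 to 1 at 3 h, 0 to 1 at 48 h, 1 to 4 over time in wild type and 0 to 5 in the libraries labelled Chd5-/-. The replicate block within each time changed no call of a member. The 1 block for both times left Ss18l1 (adjusted p = 0.0169 and 0.0322) and Dpf1 (adjusted p = 0.045) on the same side of the threshold.

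No called value reversed in 81 refits, and 39 of 840 uncalled ones did. At 3 h these were, with no filter, Actl6a (0.04), Ss18l1 (0.00), Dpf1 (0.03) and Smarca4 (0.03). With RLE size factors and with DESeq2 Phf10 was at -0.03, with limma-voom Actl6a was at 0.04, and with the replicate block Actl6a was at 0.03 for both times together and at 0.04 within each time. With the length offset Phf10 was at -0.81 and Dpf1 at 0.52, and in the interaction Actl6a was at 0.04 and Phf10 at 0.71. Without the 3 libraries Dpf1 was at 0.13 at 3 h and Actl6a at 0.25 in the interaction. Leaving out 1 library gave ranges over 0 at 3 h for Actl6a (-0.26 to 0.14), Ss18 (-0.32 to 0.07), Ss18l1 (-0.11 to 0.03), Phf10 (-0.02 to 0.16), Dpf1 (-0.15 to 0.13) and Smarca4 (-0.09 to 0.00). It did so at 48 h for Actl6a (-0.24 to 0.08), Phf10 (-0.62 to 0.15), Dpf1 (-0.45 to 0.10), Smarca2 (-0.10 to 0.37) and Smarca4 (-0.02 to 0.13), and in the interaction for Actl6a (-0.26 to 0.14), Phf10 (-0.66 to 0.11) and Dpf3 (-1.38 to 0.27). For the interaction only Actl6a, Phf10, Dpf2, Dpf3 and Smarca4, which passed there over 9 libraries, were followed. The counts of reversed values leave out the interaction of the other members. The cause of the reversals was not tested. The stricter filter removed Actl6b, which has no value there. Reads limit Actl6b, with 0 to 45 per library.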
